A study of Mus musculus with 8 samples.

Results

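The antiviral genes Ifit1, Ifit2, Ifit3, Isg15, Usp18, Rsad2, Oasl1, Oasl2, Oas1a and Mx1 were followed in mouse bone marrow-derived macrophages given interferon gamma (IFNγ), antibody-coated red cells or both. They are 10 of 16593 genes with a probe, and every probe annotated with 1 of their symbols was taken, 18 of 25697. Of the 10 genes 9 had a probe above background on both arrays of a group and were tested, and Ifit1 did not. These genes are a core part of the interferon response. Interferon receptors activate transcription factors, and a complex that holds STAT2 and IRF9 binds a promoter element called the interferon-stimulated response element (ISRE) that many such genes share. IFNγ acts mainly through a different element (GAS), and it also raises IRF1, which can bind ISRE-type sequences. Their products bind viral RNA (Ifit, Oas and Oasl families), are conjugated to proteins (Isg15), restrict budding and replication (Rsad2, which encodes viperin) or block viral nucleoproteins (Mx1), while Usp18 removes ISG15 from proteins and dampens type I interferon receptor signalling.

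The 4 groups, each with 2 arrays, were IFNγ (10 ng/ml) together with sheep red blood cells coated with mouse IgG2a (10 red cells per macrophage), IFNγ alone, the coated red cells alone, and unstimulated cells. Stimulation lasted 6 h and began on day 8 of culture, and all cells came from C57BL/6 marrow grown in medium conditioned by L929 cells, which supplies the growth factor M-CSF. C57BL/6 mice carry a deleted form of Mx1 that gives no functional protein, so here Mx1 is a transcript readout only. The series title speaks of coincidence detection by the IFNγ receptor with FcγRI, an Fc receptor for IgG. The coated red cells are called opsonised cells here, and such particles can be taken up through Fcγ receptors. Uptake was not read on these arrays. No group was given uncoated red cells, so effects of the red cells and of their coat cannot be told apart. The labels do not state whether the 2 replicates of a group are separate mice or cultures. The p-values therefore reflect only how far these samples spread, and part of that spread may be technical.

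Values are intensities of Illumina bead arrays on a linear scale, already normalized between arrays and without background subtraction. Precision is limited by the small number of arrays. Arrays of 1 group correlated at 0.992 to 0.994 and arrays of different groups at 0.952 to 0.984 over all probes. A probe counted as above background at an intensity over 199.99. Differences were tested with limma on log2 intensity over all 9356 features above background, with Benjamini-Hochberg adjustment within each comparison and a threshold of 0.05. "Higher", "rose", "lower" and "fell" refer to genes that passed. Values after ± are limma's moderated standard errors of the log2 change, with n = 2 arrays per group. They draw on the spread in all 4 groups and in features of like intensity. They are not the scatter of the 2 groups compared alone. Each gene is represented by its brightest probe unless stated otherwise. All 4 measured macrophage markers of 6 (Adgre1, Itgam, Lyz2 and Mertk) were above background, and their sum was 32948 to 33187 with both stimuli, 30736 to 31923 with IFNγ, 31025 to 33170 with opsonised cells and 32243 to 34439 unstimulated. Lyz2 makes up most of that sum, and Mertk moved more, with means of 1981 with both, 1434 with IFNγ, 889 with opsonised cells and 1266 unstimulated. Of the 4 plasmacytoid dendritic cell markers, Siglech, Ly6d and Ccr9 were not above background and Tcf4 was, and the list summed to 2317 to 2475 with both stimuli, 2644 to 2961 with IFNγ, 1594 to 1940 with opsonised cells and 2863 to 2925 unstimulated. No erythroid (3 measured) or T and NK cell (4 measured) marker was. The neutrophil list, 4 of 6 above background and mostly S100a8, summed to 3964 to 4057 with both stimuli and 3307 to 3558 with IFNγ alone. The B cell list, with 2 of 3 measured markers above background, summed to 638 to 653 with both and 734 to 749 with IFNγ. The part of these markers in the results below was not tested. In bulk RNA, fewer cells of a type and less RNA per cell cannot be told apart.

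The promoters are shown as context for the 10 genes. The 9 tested genes rose with IFNγ, and 3 of them changed when opsonised cells were added to it. RefSeq promoter sequences (GRCm38.p6) were given for 8 of the 10 genes, not for Usp18 and Mx1, and Ifit2 had 2 starts. The 250 bases before each start were searched on both strands for the ISRE core (GAAA, any 2 bases, GAAA), TTCNNNGAA (GAS) and TGANTCA (AP-1, the motif of Fos and Jun proteins), with overlapping matches counted. An ISRE match was present in 5 of the 8 genes, the untested Ifit1 among them, and in 5 of their 9 promoters. Of 32851 promoters of the same length 2.98% had one. A GAS match was present in 2 of the 8 (2 of 9 promoters), against 7.02% of all promoters. An AP-1 match was present in 2 of the 8 (2 of 9 promoters), against 6.75%. The 4 sequences below belong to the 3 genes whose level with both stimuli differed from that with IFNγ alone (Oasl1, Rsad2 and Ifit3) and to Isg15, which had nearly the same level in both. They lie at chr5:114922990-114923239 (+ strand), chr12:26456453-26456702 (- strand), chr19:34583279-34583528 (+ strand) and chr4:156200819-156201068 (- strand), end at the base before the start and are written 5′ to 3′ along the gene. Capitals mark ISRE matches.
Oasl1: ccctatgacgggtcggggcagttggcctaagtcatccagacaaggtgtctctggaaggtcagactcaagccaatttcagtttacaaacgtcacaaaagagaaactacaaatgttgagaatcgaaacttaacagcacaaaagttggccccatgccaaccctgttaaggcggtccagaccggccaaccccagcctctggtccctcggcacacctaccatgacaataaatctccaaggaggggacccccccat
Rsad2: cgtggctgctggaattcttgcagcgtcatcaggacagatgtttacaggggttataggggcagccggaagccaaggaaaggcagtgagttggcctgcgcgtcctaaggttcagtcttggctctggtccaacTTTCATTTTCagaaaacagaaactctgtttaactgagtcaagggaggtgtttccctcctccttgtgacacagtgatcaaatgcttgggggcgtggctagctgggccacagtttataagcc
Ifit3: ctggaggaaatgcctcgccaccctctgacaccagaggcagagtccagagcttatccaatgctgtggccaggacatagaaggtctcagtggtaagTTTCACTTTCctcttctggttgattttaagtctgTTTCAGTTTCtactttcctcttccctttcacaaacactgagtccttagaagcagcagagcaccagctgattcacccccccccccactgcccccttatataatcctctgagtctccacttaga
Isg15: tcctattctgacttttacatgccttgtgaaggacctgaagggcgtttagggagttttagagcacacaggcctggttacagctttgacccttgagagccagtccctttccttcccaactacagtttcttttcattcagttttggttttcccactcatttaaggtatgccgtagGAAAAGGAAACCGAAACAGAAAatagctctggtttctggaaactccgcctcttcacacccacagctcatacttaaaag
The Oasl1 sequence held no exact match to any of the 3 motifs. The Rsad2 sequence held 1 ISRE match, starting at position -120 from the start, and an AP-1 match at -87. Ifit3 held 2 ISRE matches at -156 and -122 and an AP-1 match at -56. Isg15 held 3 overlapping ISRE matches between -78 and -66. Ifit1 had 2 ISRE matches (-104 and -85) and Oas1a 2 (-20 and -14), while neither start of Ifit2 nor that of Oasl2 had one. A match is a description of letters and not of bound protein.

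**Figure D1:**
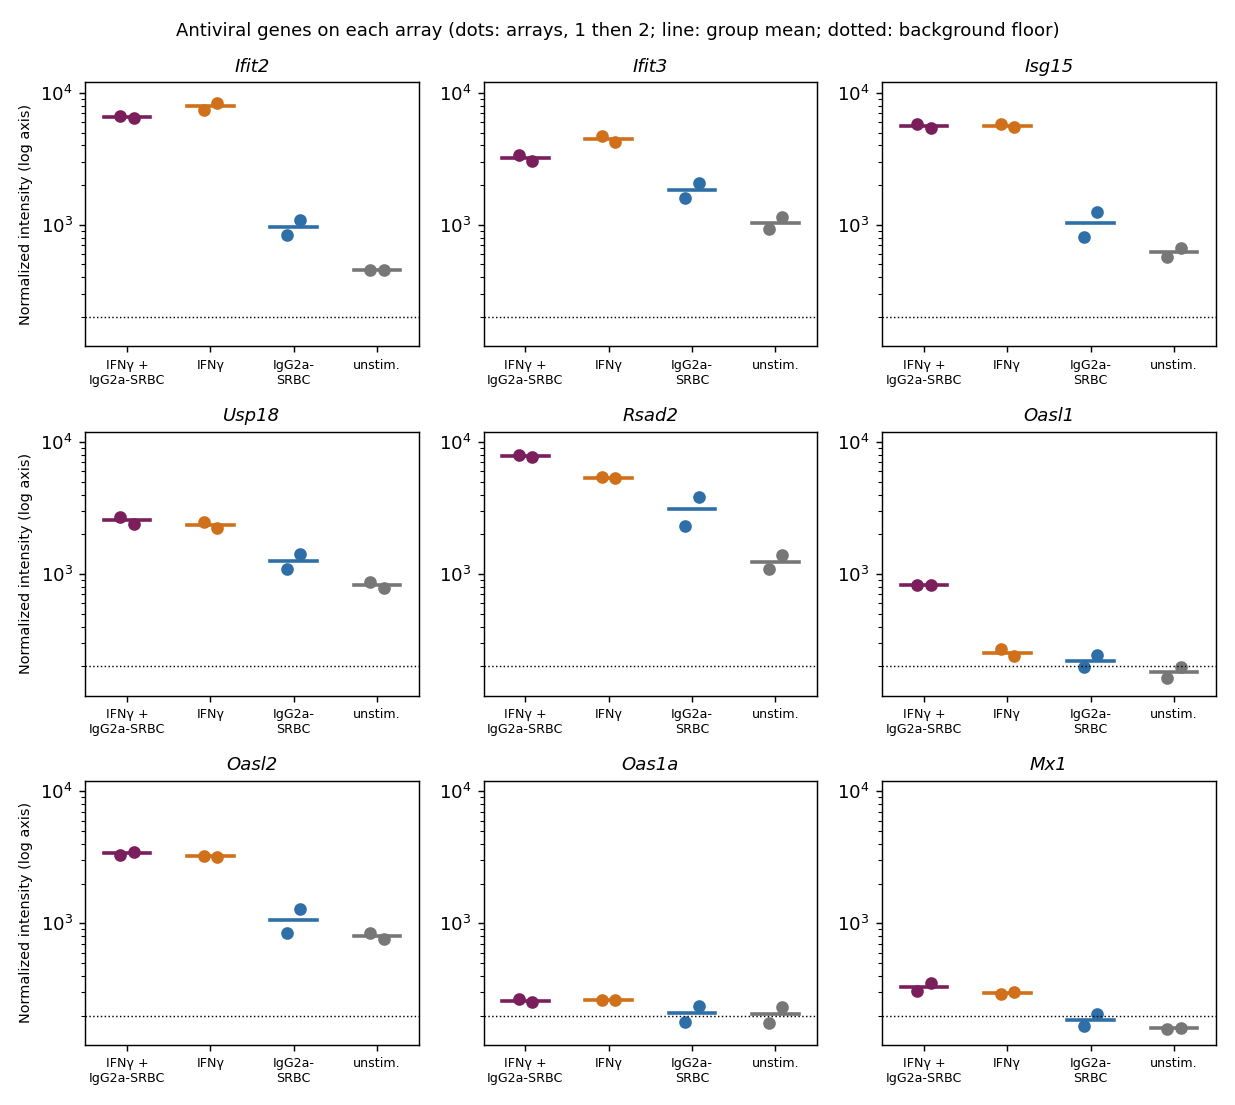
Normalized intensity (log axis) of the 9 tested genes in the 4 groups, with each dot an array, each line a group mean of 2 arrays and the dotted line the background floor of 199.99. With IFNγ, alone or with opsonised cells, all 9 genes lie above their unstimulated mean, and Oasl1 stands apart, with 825.1 and 824.6 with both stimuli against 269.1 and 237.8 with IFNγ alone.

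IFNγ alone raised all 9 tested genes over unstimulated cells, against 9.45% of all features higher and 12.3% lower. That count is in part set by the filter: Oasl1, Oas1a and Mx1 were above the floor on both arrays only in the 2 groups with IFNγ, and Ifit1 was not tested. The other 6 genes were above the floor on all 8 arrays. The median log2 change of the 9 was 2.02, against -0.04 over all features. The Ifit genes, whose products bind viral RNA, differed in the size of their response. Ifit2 had 7414 and 8434 with IFNγ against 455.9 and 456.6 unstimulated, a log2 change of 4.12 ± 0.12 (17.3-fold, limma adjusted p = 3.7e-18). Ifit3, whose gene lies directly beside Ifit2 on chromosome 19, had 4736 and 4240 against 931.0 and 1137 (2.12 ± 0.13). The 2 groups did not overlap for either gene. The size depended on the probe, with 9.29-fold for the dimmer Ifit2 probe and 2.25-fold and 2.20-fold for the dimmer Ifit3 probes.

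Ifit1 could not be read: its single probe lay between 174.7 and 201.9 on the 4 arrays with IFNγ and between 176.1 and 192.6 on the 4 without, around the floor. It passed the floor on 1 array with both stimuli (200.8) and 1 with IFNγ (201.9), never on both arrays of a group, and was not tested.

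The ubiquitin-like modifier gene Isg15 had 5809 and 5470 with IFNγ against 572.6 and 668.8 unstimulated (3.19 ± 0.14, 9.11-fold). Usp18, which encodes the enzyme that removes ISG15, had 2484 and 2249 against 872.7 and 783.3 (1.52 ± 0.13). Rsad2 had 5399 and 5363 against 1090 and 1382 (2.13 ± 0.15). In these 3 genes the lowest IFNγ array was well above the highest unstimulated one.

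Among the oligoadenylate synthetase genes the responses were unequal. Oasl2 had 3261 and 3180 with IFNγ against 836.9 and 758.0 unstimulated (2.02 ± 0.14, adjusted p = 7.2e-11, and 0.90 ± 0.12 for its dimmer probe). Its neighbour Oasl1 reached only 269.1 and 237.8 with IFNγ, against 162.8 and 197.4 unstimulated, at least 1.26-fold higher because no unstimulated array was above background (adjusted p = 0.0058). Oas1a, whose product makes the antiviral messenger 2-5A, had 264.2 and 264.1 against 174.5 and 233.2 (0.39 ± 0.13, adjusted p = 0.035). Mx1 had 290.3 and 302.5 against 159.0 and 162.0, at least 1.48-fold higher. The calls of Oasl1 and Oas1a with IFNγ were lost without unstimulated replicate 1 (0.36, adjusted p = 0.14, and 0.18, adjusted p = 0.49). Both were also lost without IFNγ replicate 1 (0.41, adjusted p = 0.096, and 0.39, adjusted p = 0.13), and that of Oas1a without IFNγ replicate 2 (0.39, adjusted p = 0.13) or with probes of a gene averaged (adjusted p = 0.062). Oas1a may share signal with near-identical copies such as Oas1g, and Ifit3 with Ifit3b, since the probe annotation names 1 gene only.

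Opsonised cells alone raised 5 of the 9 genes over unstimulated cells, against 6.04% of all features higher and 6.16% lower. The median of the 9 was 0.59, against -0.01 over all features. In the same comparison Tcf4 had means of 1215 with opsonised cells and 2332 unstimulated, and the part of that shift in the result was not tested. Rsad2 had 2330 and 3846 with opsonised cells against 1090 and 1382 unstimulated, a log2 change of 1.29 ± 0.15 (2.44-fold, limma adjusted p = 2.3e-06). Ifit2 had 830.4 and 1090 against 455.9 and 456.6 (1.06 ± 0.12), and Ifit3 had 1592 and 2088 against 931.0 and 1137 (0.83 ± 0.13). All 3 had both opsonised arrays above both unstimulated ones. With each probe tested as a feature of its own, the dimmer Ifit2 probe passed too (0.59 ± 0.13). The dimmer Ifit3 probes did not (0.33 ± 0.13, limma adjusted p = 0.11, and 0.25 ± 0.14, adjusted p = 0.29). Isg15 had 809.0 and 1248 against 572.6 and 668.8 (0.70 ± 0.14), and Usp18 had 1088 and 1429 against 872.7 and 783.3 (0.59 ± 0.13), again without overlap. Oasl2 (0.38 ± 0.14, adjusted p = 0.082), Oas1a (0.03 ± 0.13), Oasl1 (adjusted p = 0.18) and Mx1 (adjusted p = 0.30) did not pass. No unstimulated array of Oasl1 or Mx1 was above background, so the sizes of their changes are not exact. Set over the floor, Oasl1 came to 1.09-fold, a nominal bound and not an established rise, and Mx1 to no fold. Of these, Oasl2 had 840.2 and 1282 against 836.9 and 758.0, so its first opsonised array was scarcely above the higher unstimulated one. Oasl1 had 196.0 and 241.5 against 162.8 and 197.4, Mx1 had 165.6 and 205.1 against 159.0 and 162.0, and Oas1a had 179.3 and 235.1 against 174.5 and 233.2. In these 3 genes the first opsonised array was below the floor, and those of Oasl1 and Oas1a overlapped the unstimulated ones.

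The 2 arrays with opsonised cells differed for these genes. Replicate 2 was above replicate 1 in all 9, by a median of 0.39 on the log2 scale (0.30 to 0.72), while over all features replicate 2 was higher in 50.01% with a median of 0.00. In the other groups replicate 2 was higher in 2 of 9 with both stimuli (median -0.07), 2 of 9 with IFNγ (median -0.04) and 7 of 9 unstimulated. The unstimulated arrays thus differed too, by a median of 0.22 (-0.16 to 0.42), against 0.00 over all features. Of 34 further interferon pathway genes tested, 28 were higher in opsonised replicate 2, by a median of 0.16. Without that array opsonised cells raised 3 of the 9 genes, and Isg15 (0.39, adjusted p = 0.066) and Usp18 (0.40, adjusted p = 0.073) no longer passed. The Isg15 call was also lost without unstimulated replicate 1 (0.59, adjusted p = 0.050) and the Usp18 call without unstimulated replicate 2 (0.51, adjusted p = 0.054). Without opsonised replicate 1 the count was 6, with Oasl2 added at 0.69 (adjusted p = 0.001). The calls of Rsad2, Ifit2 and Ifit3 held in each fit that left out 1 array.

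Cells given both stimuli were then set against cells given IFNγ alone. Here 2 of the 9 genes were higher and 1 was lower, against 6.46% of all features higher and 7.45% lower. The median of the 9 was 0.07 and that of all features -0.01. Over all features the higher share of calls was 46.4%, and 59.1% after centring on housekeeping genes. That centring left the direction and call of the 3 genes as they were.

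Oasl1, whose product is known from mouse studies to restrain translation of the IRF7 messenger RNA, had 825.1 and 824.6 with both stimuli and 269.1 and 237.8 with IFNγ alone. Each array with both stimuli was far above each IFNγ array. The log2 change was 1.70 ± 0.13 (3.26-fold, 95% interval 2.72 to 3.91, limma adjusted p = 9.7e-10), and it lay between 1.62 and 1.79 when single arrays were left out. Rsad2 had 7998 and 7653 with both and 5399 and 5363 with IFNγ (0.54 ± 0.15, 1.45-fold, interval 1.16 to 1.82, adjusted p = 0.020). Its groups did not overlap, but its call was lost without either array of the 2 groups compared, with changes of 0.51 to 0.57 and adjusted p of 0.058 to 0.10.

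Ifit3 had 3398 and 3048 with both stimuli and 4736 and 4240 with IFNγ alone, a log2 change of -0.48 ± 0.13 (0.718-fold, interval 0.596 to 0.865, limma adjusted p = 0.014). Both arrays with both stimuli lay under both IFNγ arrays. The call was lost without replicate 2 of both stimuli (-0.40, adjusted p = 0.13) and without IFNγ replicate 1 (-0.40, adjusted p = 0.16). Its neighbour Ifit2 had 6722 and 6401 with both and 7414 and 8434 with IFNγ. That is the same arrangement of arrays, but at -0.27 ± 0.12 it did not pass (adjusted p = 0.16, interval of the fold 0.697 to 0.988).

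The other 5 genes did not pass this comparison. Isg15 had 5827 and 5445 with both stimuli and 5809 and 5470 with IFNγ, a fold of 0.999 with a 95% interval of 0.813 to 1.23. Oasl2 had 3280 and 3480 against 3261 and 3180 (interval of the fold 0.858 to 1.28). Usp18 had 2727 and 2401 against 2484 and 2249 (interval 0.902 to 1.30). Oas1a had 266.9 and 251.3 against 264.2 and 264.1 (interval 0.813 to 1.18), and Mx1 had 306.9 and 353.0 against 290.3 and 302.5 (interval 0.944 to 1.31).

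**Figure D2:**
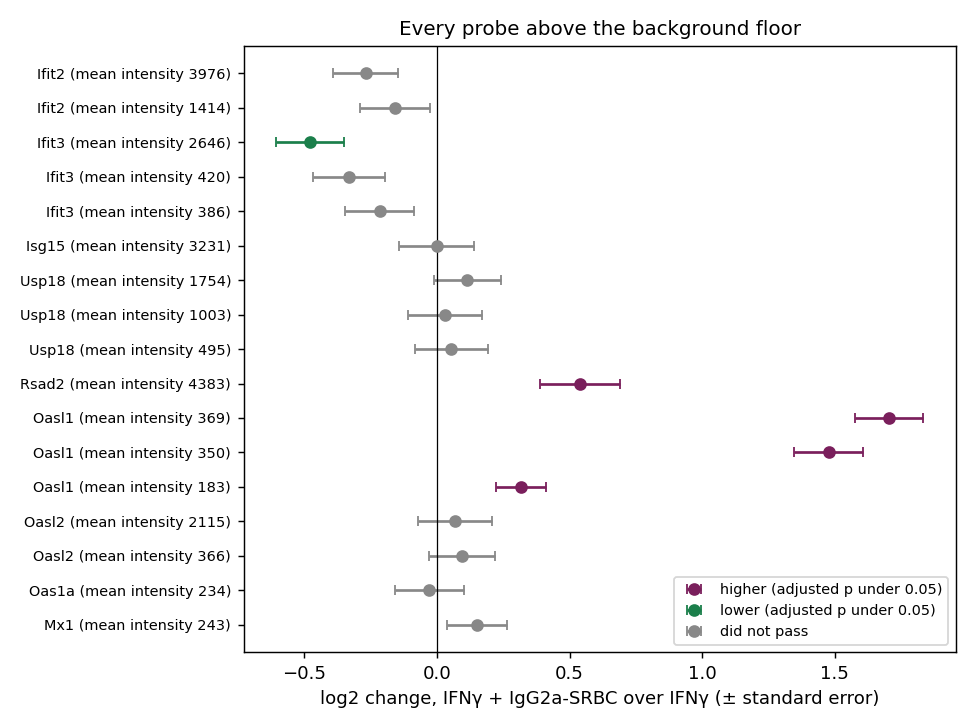
Log2 change of IFNγ plus opsonised cells over IFNγ alone (horizontal axis, ± standard error) for the 17 probes above the floor, 1 row per probe, with the probe's mean intensity over the 8 arrays in its label and the call in colour. The brighter Oasl1 probes lie at 1.70 and 1.48 and the dimmest, kept only through the group with both stimuli, at 0.32, while all 3 Ifit3 and both Ifit2 probes lie left of 0, with 1 Ifit3 probe past the test.

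Probes of 1 gene had the same sign in this comparison. With each probe tested as a feature of its own, the 2 brighter Oasl1 probes changed by 1.70 ± 0.13 and 1.48 ± 0.13, and both passed (limma adjusted p = 4.8e-09 for the smaller change). The dimmest Oasl1 probe had 246.6 and 212.1 with both stimuli and 182.7 and 184.7 with IFNγ, at least 1.14-fold higher. It was above the floor with both stimuli only and entered the test through that group, so its call is no support of its own. The dimmer Ifit3 probes changed by -0.33 ± 0.14 (adjusted p = 0.12) and -0.22 ± 0.13 (adjusted p = 0.32) without passing, beside -0.48 ± 0.13 for the brightest. The dimmer Ifit2 probe was at -0.16 ± 0.13 without passing. Its 2 groups overlapped, with 2428 and 2235 with both stimuli against 2292 and 2951 with IFNγ. The 3 Usp18 probes ranged from 0.03 to 0.11, and the 2 Oasl2 probes were at 0.07 and 0.09. With probes of a gene averaged, Oasl1 alone passed; Ifit3 was then at -0.34 (adjusted p = 0.096) and Rsad2, with its 1 probe, at an adjusted p = 0.057.

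**Figure D3:**
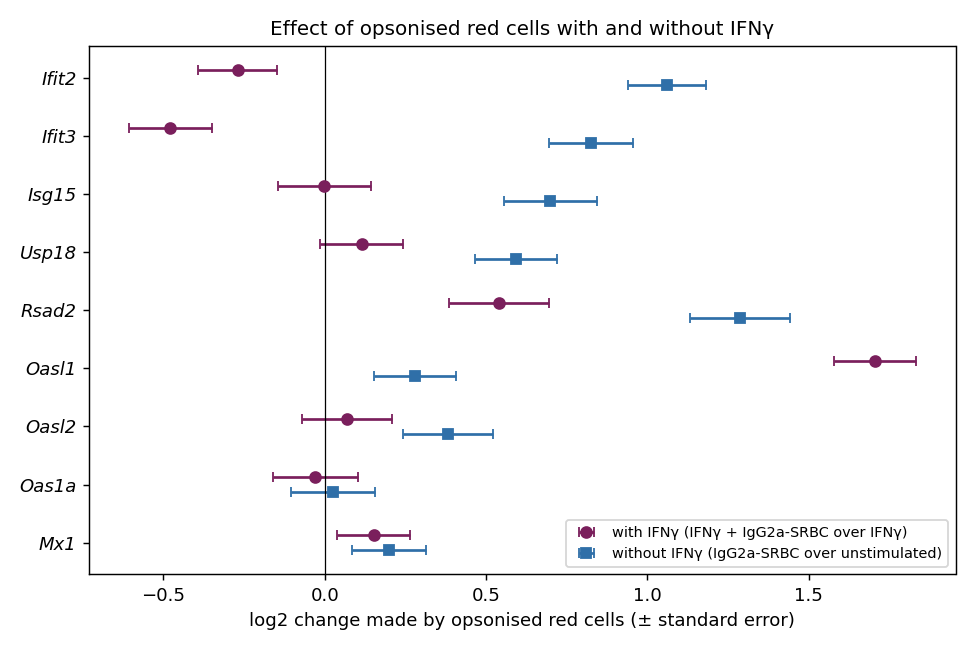
Log2 change made by opsonised cells (horizontal axis, ± standard error, 2 arrays per group) for each of the 9 genes, with IFNγ (circles, IFNγ plus opsonised cells over IFNγ) and without it (squares, opsonised cells over unstimulated). In Ifit2 and Ifit3 the circle is left of 0 and the square right of it, and in Oasl1 the circle lies at 1.70 against a square at a fitted 0.28, where no unstimulated array was above background.

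How far opsonised cells moved each gene was compared between cells with IFNγ and cells without it, as the interaction term of the same fit. It compares folds, so a negative value does not by itself mean that less signal was added with IFNγ. In Rsad2 the mean went from 5381 to 7826 with IFNγ and from 1236 to 3088 without. In Isg15 it went from 5640 to 5636 with IFNγ and from 620.7 to 1028 without. A negative interaction was called for 2 of the 9 genes and a positive one for 1, against 1.3% of all features negative and 1.11% positive. For Ifit2 the change was -0.27 with IFNγ and 1.06 without, an interaction of -1.33 ± 0.17 (limma adjusted p = 4.7e-05). For Ifit3 it was -0.48 with IFNγ and 0.83 without (-1.30 ± 0.18, adjusted p = 0.00014). By their brightest probes, opsonised cells thus raised both genes in otherwise unstimulated cells and not in IFNγ-treated ones. The dimmer Ifit3 probes did not pass in otherwise unstimulated cells. For Oasl1 the fitted change was 1.70 with IFNγ and 0.28 without (1.43 ± 0.18, adjusted p = 3.6e-05). No unstimulated Oasl1 array was above background, and the change without IFNγ did not pass. Its nominal bound of 1.09-fold includes an opsonised array under the floor, so it is no established rise. The 1.43 is a fitted value, not an exact size. These 3 calls held in each of the 16 alternatives run, with values of -1.53 to -1.04 for Ifit2, -1.50 to -0.81 for Ifit3 and 1.00 to 1.65 for Oasl1.

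The remaining 6 genes had negative interaction values that did not pass: Rsad2 -0.75 ± 0.22 (adjusted p = 0.076), Isg15 -0.70 ± 0.20 (adjusted p = 0.072), Usp18 -0.48 ± 0.18, Oasl2 -0.31 ± 0.20, Oas1a -0.05 ± 0.19 and Mx1 -0.05 ± 0.16. Without opsonised replicate 1, Rsad2, Isg15, Usp18 and Oasl2 passed too, which made 7 of 9. Among other probes, the dimmer Ifit2 probe had an interaction of -0.75 ± 0.18 (limma adjusted p = 0.026) and the second Oasl1 probe 1.40 ± 0.18 (adjusted p = 3.6e-05). No unstimulated array of that second probe was above the floor either. The dimmest Oasl1 probe, above the floor with both stimuli only, was at 0.18 ± 0.13 and did not pass (limma adjusted p = 0.59). The dimmer Ifit3 probes were at -0.58 and -0.55 and did not pass.

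Ordered by level, the genes fell into different sequences of groups. Against unstimulated cells all 9 were higher with both stimuli, with the same limit for Oasl1, Oas1a and Mx1, against 14.5% of all features, from 0.36 ± 0.13 for Oas1a to 3.85 ± 0.12 for Ifit2 on the log2 scale. Oasl1 and Mx1, at background in unstimulated cells, were at least 4.12-fold and at least 1.65-fold higher. The Oas1a call there was lost without either array of both stimuli (0.32, adjusted p = 0.13, and 0.40, adjusted p = 0.053), without unstimulated replicate 1 (0.15, adjusted p = 0.50) and with probes of a gene averaged (adjusted p = 0.058). Set against opsonised cells alone, again with that limit, 8 were higher with both, against 11.3% of all features, and 8 were higher with IFNγ alone, against 10.7%. Rsad2 stood highest with both stimuli, then with IFNγ, with opsonised cells and unstimulated, and each step passed. Ifit3 stood highest with IFNγ, then with both, with opsonised cells and unstimulated, and each step passed as well. For Ifit2, Isg15 and Usp18 the levels with both stimuli and with IFNγ were not separated by the test, and they exceeded that with opsonised cells, which exceeded the unstimulated one. For Oasl2 and Mx1 neither the upper pair of groups nor the lower pair was separated by the test. Oasl1 stood highest with both stimuli. Its brightest probe did not pass for IFNγ over opsonised cells (0.22 ± 0.13, adjusted p = 0.25), while its second probe, with 303.0 and 232.4 against 188.0 and 213.4, did (0.41 ± 0.13, adjusted p = 0.025). Opsonised over unstimulated cells did not pass for Oasl1, and IFNγ over unstimulated cells did. In Oas1a the level with both did not pass against opsonised cells (0.34 ± 0.13, adjusted p = 0.060, and 0.53, adjusted p = 0.015, without opsonised replicate 2), while that with IFNγ did (0.36 ± 0.13, adjusted p = 0.048).

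Across the 8 arrays the members' log2 profiles correlated with their mean profile at 0.99 for Isg15, Oasl2 and Mx1 and at 0.78 for Oasl1, the lowest. Between members r ranged from 0.54 (Ifit3 with Oasl1) to 0.99 (Ifit2 with Isg15). These correlations share the 4-group design and its arrays and are descriptions only. Outside the 10 genes, those most like the mean profile among 680 named genes with a log2 range of at least 1 were Ifi35 (r = 0.996), Pfkp, which encodes a glycolytic enzyme (0.989), Parp14 (0.989), the cytidine deaminase gene Apobec3 (0.988) and Oas2 (0.987). Those most like Rsad2 were the inflammatory caspase gene Casp1 (0.990), the adhesion molecule gene Icam1 (0.988), Ccdc86 (0.984), Rgcc (0.983) and the kinase gene Mapkapk2 (0.981). Icam1 had means of 17408 with both stimuli and 9078 with IFNγ, 0.94 ± 0.12 on the log2 scale.

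**Figure D4:**
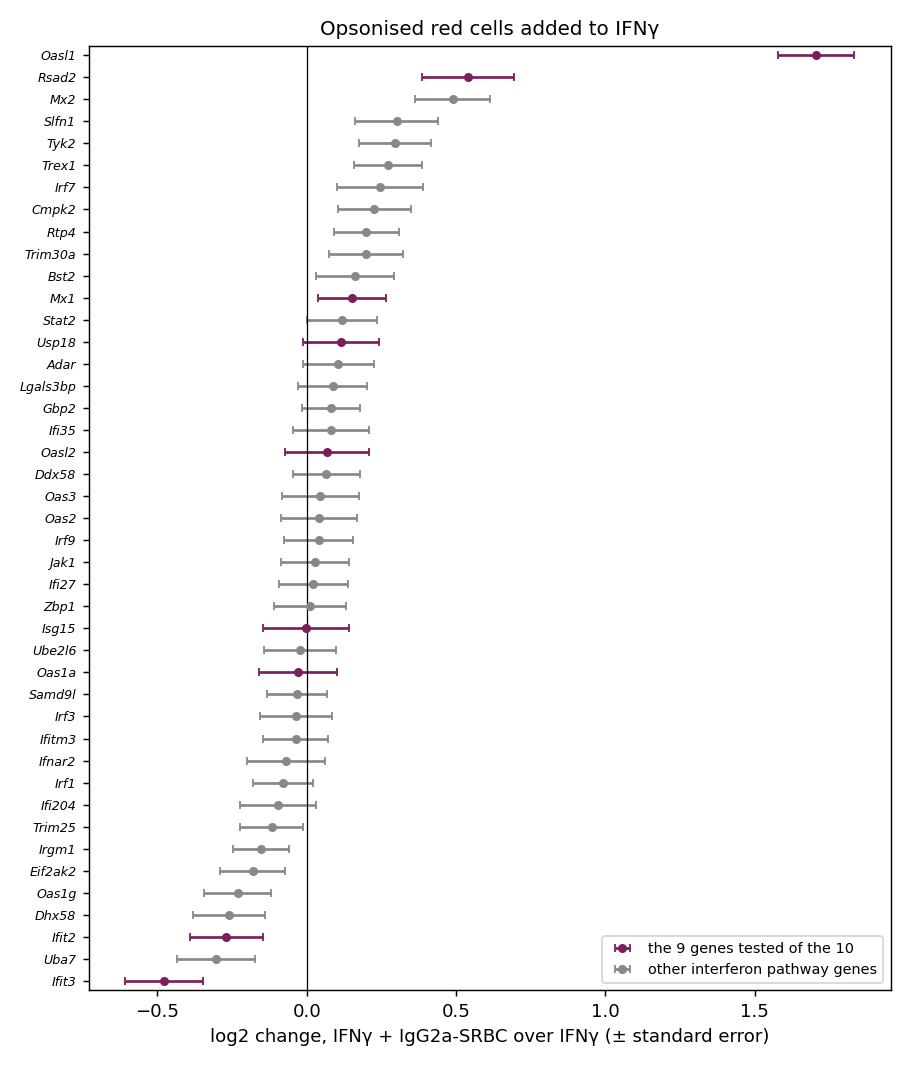
Log2 change of IFNγ plus opsonised cells over IFNγ alone (horizontal axis, ± standard error, 2 arrays per group) for the 9 tested genes (purple) and 34 other genes of the interferon pathway (grey), 1 row per gene, sorted by change. Most genes lie within 0.3 of 0, Oasl1 is at the top at 1.70, and Mx2 at 0.49 is the 1 grey gene that passed.

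A list of 51 other genes of type I interferon signalling and response was read beside the 10. Of these 46 had a probe and 34 were tested. With IFNγ alone 27 rose and 1, Ifi27, fell by 0.48 ± 0.12 (median 1.00), against 9.45% of all features higher and 12.3% lower. With opsonised cells alone 6 rose (median 0.17), against 6.04% of all features. By limma 0 fell with opsonised cells, against 6.16% of all features, and 0 had a lower value with an unadjusted p under 0.05. Between both stimuli and IFNγ alone 1 of the 34 was higher, against 6.46% of all features, with a median of 0.04. By limma 0 were lower there, against 7.45% of all features, and 3 had a lower value with an unadjusted p under 0.05. The gene that passed was Mx2, which encodes a GTPase of the Mx family. It had 375.2 and 436.9 with both stimuli and 277.7 and 300.05 with IFNγ (0.49 ± 0.13, limma adjusted p = 0.009). The interaction was negative for 2 of the 34, against 1.3% of all features: Oas1g (-0.60 ± 0.16, adjusted p = 0.041) and Gbp2, which encodes a guanylate-binding GTPase (-1.18 ± 0.14). Gbp2 and Ifi27 are named after their values were seen. Gbp2 had 29099 and 28881 with both stimuli and 27396 on both arrays with IFNγ, where the highest intensity of any probe was 35989.

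The 3 type I interferon genes of the list were not above background: the Ifnb1 probe lay between 149.4 and 182.7, that of Ifna2 between 161.9 and 179.1 and that of Ifna4 between 135.7 and 180.2 over the 8 arrays. The receptor gene Ifnar1 was also under the floor on every array, with a highest value of 168.0, and Ifnar2 was at -0.07 ± 0.13 for both stimuli over IFNγ without passing. The kinases Tyk2 and Jak1 act at the receptor, Stat2 and Irf9 encode parts of the complex that binds the ISRE, and Irf3 and Irf7 are factors that drive interferon genes. Among these and Irf1, Stat2 rose with IFNγ (1.42 ± 0.12), as did Irf7 (1.17 ± 0.14), Irf1 (3.27 ± 0.10) and Tyk2 (0.60 ± 0.12), while Irf9 (0.26 ± 0.11), Irf3 (-0.20 ± 0.12) and Jak1 (0.14 ± 0.11) did not pass. With both stimuli over IFNγ, Tyk2 (0.30 ± 0.12), Irf7 (0.25 ± 0.14), Stat2 (0.12 ± 0.12), Irf9 (0.04 ± 0.11), Jak1 (0.03 ± 0.11), Irf3 (-0.04 ± 0.12) and Irf1 (-0.08 ± 0.10) did not pass. Irf7 had 644.6 and 647.5 with both stimuli and 563.7 and 526.2 with IFNγ.

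Of the 3 tested genes that attach ISG15 to proteins, 2 rose with IFNγ. Uba7, the activating enzyme gene, rose by 1.52 ± 0.13 and Ube2l6, the conjugating enzyme gene, by 1.48 ± 0.12, while the ligase gene Trim25 (0.06 ± 0.10) did not pass. With both stimuli over IFNγ they were at -0.30 ± 0.13, -0.02 ± 0.12 and -0.12 ± 0.10, and none of the 3 passed by limma. Of the other synthetase genes, Oas1g (1.37 ± 0.11), Oas2 (1.21 ± 0.13) and Oas3 (0.70 ± 0.13) rose with IFNγ, and with both stimuli over IFNγ they were at -0.23 ± 0.11, 0.04 ± 0.13 and 0.04 ± 0.13 without passing. Oas1b, Oas1c, Oas1e and Oas1f were not above background on both arrays of any group.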

How the data were processed

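RNA of 8 macrophage samples in 4 groups was read on Illumina MouseRef-8 arrays. The authors' deposited values are linear intensity values, and the submitters' processing notes name GenomeStudio. Its version and the normalization were not given in the sources used here. Tested on the values, the sorted columns differed by at most 0.960%, so the arrays had been quantile normalized, and the lowest value was 119.8, so background had not been subtracted and changes of dim genes come out too small. Another deposited table, with 16 per-sample columns that match no sample label, was not used.

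limma 3.58.1 in R 4.3.3 fitted log2 intensity with 4 group means (4 residual degrees of freedom, 22.7 after moderation, intensity trend), and the script was tested on simulated data. Probes were kept when both arrays of at least 1 group exceeded the floor, the mode of all log2 values plus 1.64 SD of the values below it (12333 of 25697 probes). A group with no array above the floor gives "at least N-fold": the brighter mean over the floor, or over the dim signal where that is higher. The floor and the comparison of IFNγ with opsonised cells were set after the data were seen. Probe annotation gave 1 symbol for 23978 probes and none for 1719. Named were all members, all signalling, ISG15 and OAS genes of the pathway list, its genes called between both stimuli and IFNγ (up to 4 a direction), and the 5 genes most like the mean profile and Rsad2. Members and lists were chosen with earlier results of these data known. Alternatives covered scaling, background, filter, probe choice, variance model, samples in the fit, the replicate block and each array left out.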

Additional observations from a re-analysis of the deposited data

Results flagged for a closer look

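The change made by opsonised cells differed between cells with and without IFNγ for 3 of the 9 genes, by limma's interaction term. The difference was -1.33 on the log2 scale for Ifit2 (adjusted p = 4.7e-05), -1.30 for Ifit3 (adjusted p = 0.00014) and 1.43 for Oasl1 (adjusted p = 3.6e-05). The Oasl1 value is not an exact size, because no unstimulated array was above background. Its change without IFNγ did not pass, and the nominal bound of that change (1.09-fold) includes an opsonised array under the floor. By the brightest probes of Ifit2 and Ifit3, both arrays with IFNγ plus opsonised cells lay below both IFNγ arrays. Both arrays with opsonised cells alone lay above both unstimulated ones. The lower level of Ifit2 with both stimuli than with IFNγ did not pass, and the arrays of its dimmer probe overlapped there. The share of all features separated in this way was not counted. With 2 arrays per group no single array could be tested as standing apart from its group.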

How the results depend on the processing

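Counts of called genes among the 9 kept within 1.5 times of the reported count in 102 of 107 fits. Both stimuli over IFNγ gave 3 genes as reported and 1 with the probes of a gene averaged. Leaving out 1 array gave 1 to 3 genes for that comparison, 3 to 6 for opsonised cells over unstimulated, 7 to 9 for IFNγ over unstimulated, 8 to 9 for both over unstimulated, 8 to 9 for both over opsonised cells and 3 to 7 for the interaction. The 3 genes also passed under cyclic loess, housekeeping centring, normexp, no filter and the stricter floor. Of 909 refitted changes of single genes 865 kept direction and side of the threshold, and the 12 that changed sign did not pass in either fit. For both over IFNγ, Isg15 was at 0.022 with cyclic loess and 0.041 with housekeeping centring, and -0.050 to 0.048 with 1 array left out. Oas1a there was at 0.014 with housekeeping centring and -0.072 to 0.015 with 1 array left out. With 1 array left out Oas1a was at -0.18 to 0.23 for opsonised cells over unstimulated, and the interaction was -0.26 to 0.16 for Oas1a and -0.20 to 0.11 for Mx1. With the replicate block the comparison of both stimuli with IFNγ again gave 3 genes and the interaction 3, and the 1 changed call was Oas1a for both over opsonised cells (adjusted p = 0.046). The fit on only the groups compared was not made for the interaction. Same-numbered deviations over all features correlated at -0.04 to 0.04 between groups, so no shift shared by replicate number was seen. That cannot settle whether the samples were paired by mouse or culture. A lone array of a group was assumed to vary like the other groups. The cause of these shifts was not tested. Intensities near the floor limit what can be read of Oas1a, Mx1, Oasl1 and Ifit1.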
